A study of Mus musculus with 5 samples.

Results

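Interferon-stimulated genes were examined in long-term haematopoietic stem cells (LT-HSCs) of mice that had all been injected with the double-stranded RNA analogue pIpC. The genes were 44 named members of the interferon response, a list of known genes drawn up with earlier results of these arrays in view. Each gene was read through the brightest probe set, by mean over the 5 arrays, among those that the platform annotation gives to that gene alone. By this rule 42 of the 44 genes were measured, of 18193 genes with a probe set of their own in the series. Isg15 had only a probe set shared with Gm9706, and Ifi44 was not analysed here. All 42 lay above the filter that removed the dimmest 40% of probe sets, a filter passed by 12813 genes. A gene can pass that filter through a single bright array.

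The arrays came from 3 Lrf knockout samples, Zbtb7a Flox/Flox Mx1-Cre+, and 2 control samples, Zbtb7a Flox/+ Mx1-Cre+, all on the C57BL/6 background and 4 weeks of age. LRF is the transcription factor encoded by Zbtb7a. Every animal carried the Mx1-Cre transgene and was injected 2 times with pIpC (250 µg). LT-HSCs were collected 9 days after the first injection. The controls therefore carried 1 floxed allele and Cre and had received pIpC, and no uninjected mouse was included, so the response to pIpC itself could not be measured. The Mx1 promoter responds to interferon in many tissues, so deletion is not limited to stem cells. Sorted cells were lineage-negative, Sca-1-positive, Kit-positive and CD150-positive and lacked IL7Ra, Flt3 and CD48. The label of knockout replicate 3 joins 2 identifiers where the others hold 1, so a pool cannot be told apart from a single mouse there.

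Double-stranded RNA such as pIpC is sensed by Toll-like receptor 3 and by cytosolic helicases, and the cells respond by secreting type I interferon. Type I interferon binds the receptor made of Ifnar1 and Ifnar2, and a complex that contains STAT2 and IRF9 then binds the interferon-stimulated response element (ISRE) in the promoters of target genes. Type II interferon acts through another receptor and through the gamma-activated site (GAS), and many guanylate-binding proteins and immunity-related GTPases answer to both. In haematopoietic stem cells, interferon drives quiescent cells into division. Mx1-Cre can be switched on by pIpC because the Mx1 promoter responds to the interferon that pIpC induces.

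Promoter windows of RefSeq (GRCm38.p6) were searched because the genes share this route of activation. Windows were held for 32 of the 44 genes, in 37 promoters, and the 250 bases before each start were read. The ISRE core searched, GAAA then any 2 bases then GAAA, or its other strand, TTTC then any 2 bases then TTTC, occurred in 15 of the 37 (40.5%), against 2.98% of 32851 promoters of all genes. The GAS core searched, TTC then any 3 bases then GAA, which reads the same on both strands, occurred in 7 of the 37 (18.9%), against 7.02% of all promoters. Both occurred in 3 of the 37 (8.11%), against 0.332% of all promoters, and the cores can overlap. A match describes letters only. The GTPases held the ISRE core in 5 of 7 promoters, and Igtp and Irgm2 held both cores.

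The stretches below are shown because they carry the ISRE core of genes whose values are described further on, with capitals for each motif that lies wholly in the stretch. They are read 5′ to 3′ on the strand of the gene and end at or before its start. Ifit1 is at chr19:34640779-34640838 and Ifit3 at chr19:34583382-34583441, both on the + strand. Gbp2 is at chr3:142620579-142620638, Igtp at chr11:58199497-58199555 and Irgm2 at chr11:58214888-58214947, all on the + strand. Rsad2 is at chr12:26456538-26456597, Cxcl10 at chr5:92349068-92349127 and Isg15 at chr4:156200850-156200909, all on the - strand.
Ifit1: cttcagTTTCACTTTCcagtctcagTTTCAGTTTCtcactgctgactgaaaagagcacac
Ifit3: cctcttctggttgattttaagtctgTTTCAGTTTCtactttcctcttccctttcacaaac
Gbp2: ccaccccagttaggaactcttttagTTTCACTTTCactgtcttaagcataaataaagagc
Igtp: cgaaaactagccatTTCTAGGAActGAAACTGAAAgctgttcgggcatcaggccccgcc
Irgm2: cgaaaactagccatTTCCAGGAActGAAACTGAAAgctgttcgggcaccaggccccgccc
Rsad2: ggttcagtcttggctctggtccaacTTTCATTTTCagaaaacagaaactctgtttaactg
Cxcl10: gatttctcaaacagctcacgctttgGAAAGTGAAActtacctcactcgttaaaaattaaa
Isg15: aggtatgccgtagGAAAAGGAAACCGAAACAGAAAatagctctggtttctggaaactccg
The Igtp and Irgm2 stretches, from neighbouring paralogs, share 57 of their first 59 bases.

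The arrays had medians of 6.38 to 6.40 on the log2 scale. Knockout replicate 2 stood apart from the rest. Its correlation with the other arrays over all probe sets, which are not independent, was 0.945 to 0.970, against 0.977 to 0.990 between the others. The median of 10 LT-HSC marker genes was 7.46 there and 9.88 to 10.45 in the other arrays, and the 3′ minus 5′ difference of Actb was 3.85, against 4.90 to 5.21. All 5 measured B cell, 8 T and NK cell and 3 mast cell markers, and 8 of 9 monocyte and neutrophil markers, were highest in it, as were Il7r and Cd48, 2 of the 3 genes the gate excludes. Only 6 of the 8 T and NK cell markers passed the filter, and Cd3g lay near background in all arrays. Fos, an early response gene, read 14.04 in knockout replicate 2 and 6.96 to 7.23 elsewhere. Atf3, a stress response gene, read 10.31 there and 5.46 to 6.28 elsewhere. Of the 11 macrophage markers, 10 were highest in control replicate 1. The median of this list was also higher in both controls, at 10.31 and 9.45, than in knockout replicates 1, 2 and 3, at 7.90, 7.87 and 8.87. The targeted gene Zbtb7a did not separate the groups: its brightest probe set averaged 8.70 ± 0.37 (SD, n = 3) in knockouts and 8.29 ± 0.10 (SD, n = 2) in controls (exact two-sided permutation p = 0.3, smallest possible 0.1). Its other 2 probe sets differed by -0.36 and -0.05 (knockout minus control, exact two-sided permutation p = 0.4 and 0.8).

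Interferon-stimulated genes were high in knockout replicate 1, and in the other knockout arrays their median, but not each gene, lay close to the controls. Relative to the mean of the controls, the median of the 42 genes was 1.96 log2 units (3.90-fold) in knockout replicate 1, 0.16 (1.12-fold) in replicate 2 and 0.31 (1.24-fold) in replicate 3. Replicate 2 lay above both controls for 20 of the 42 and below both for 15, against 3796 and 5727 of all 12813 genes. Replicate 3 lay above both for 22 and below both for 5, against 3465 and 3316. Knockout replicate 1 was the highest of the 5 arrays for 38 of 42 genes (90.5%), against 14.4% of all 12813 genes. It exceeded every other array by at least 1 log2 unit for 29 of 42 (69.0%), against 0.445% of all genes. The 4 genes that did not peak there were Isg20, Samhd1 and Rsad2, highest in knockout replicate 2, and Ifitm1, highest in control replicate 2.

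**Figure D1:**
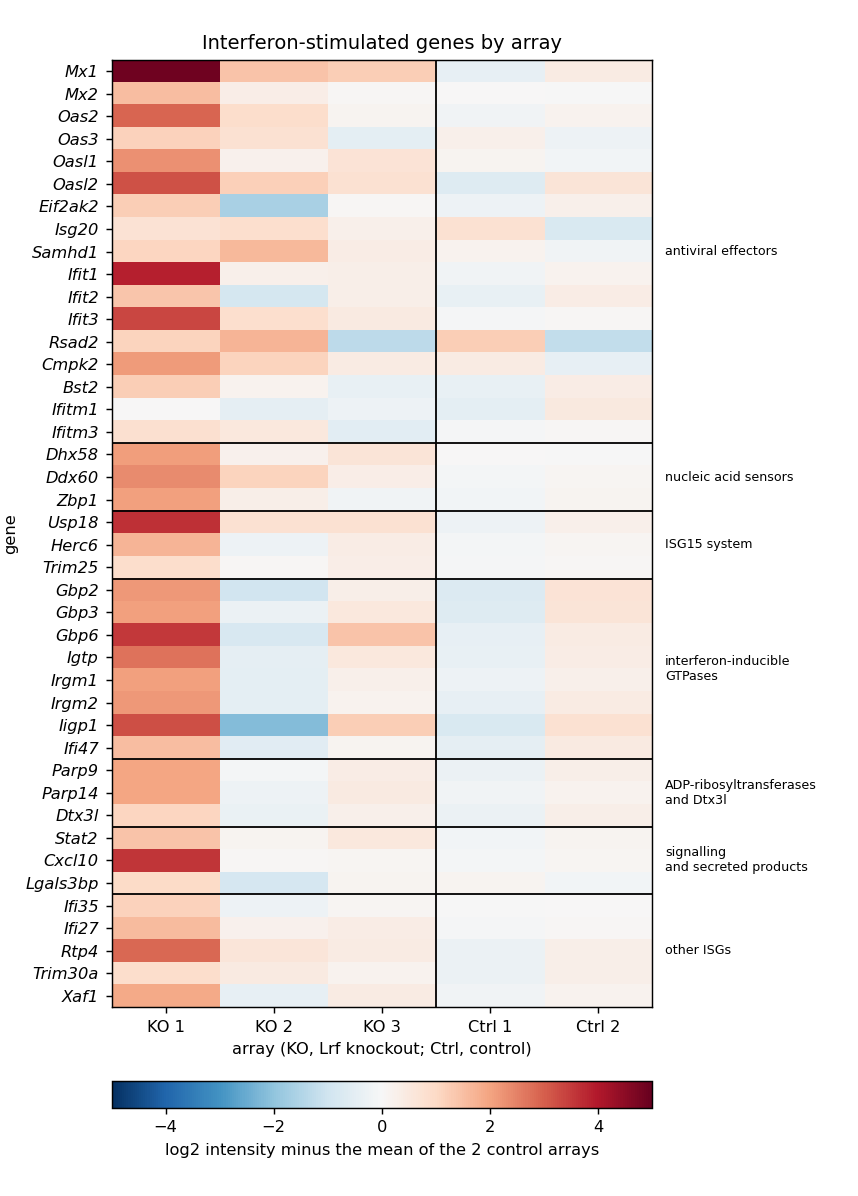
Heat map of 42 interferon-stimulated genes (rows, by role) in 3 knockout (KO) and 2 control (Ctrl) arrays (columns); colour is the log2 intensity minus the mean of the 2 control arrays. The column of knockout replicate 1 is the highest for 38 of the 42 genes, and the GTPases are low in knockout replicate 2.

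Across groups the difference was positive for most of these genes, and none passed the test. The knockout mean was above the control mean for 40 of 42 genes, against 43.7% of all genes, and the median difference (knockout minus control) was 0.71 log2 units over the members and -0.03 over all genes. In limma 0 of 42 genes had an adjusted p under 0.05, with 0.0% of 27022 probe sets called, and each had an adjusted p of 1. At an unadjusted p under 0.05 the count was also 0 of 42, against 1.13% of probe sets (306 of 27022). The median standard deviation of these genes was 1.12 over 3 knockout arrays and 0.35 over 2 control arrays, and over all genes it was 0.29 and 0.21. The p-values measure the spread between these 5 arrays alone.

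All 3 knockout arrays lay above both controls for 12 of the 42 genes (28.6%), against 2.68% of all genes. These were Mx1, Mx2, Oasl1, Oasl2, Samhd1, Ifit1, Ifit3, Dhx58, Ddx60, Usp18, Ifi27 and Rtp4. None had all 3 knockout arrays below both controls, against 4.5% of all genes.

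Without knockout replicate 1 the median difference was 0.14, against -0.04 over all genes, and it was positive for 28 of 42 genes (66.7%), against 43.2% of all genes. The same 12 genes had both remaining knockout arrays above both controls, against 4.72% of all genes. Without knockout replicate 2 the median difference was 1.15 and groups did not overlap for 22 genes, against 13.9% of all genes. Without knockout replicate 3 these values were 0.89 and 18 genes, against 6.92%. With 1 control left, all 3 knockout arrays lay above it for 14 genes without control replicate 1, against 16.4% of all genes, and for 20 genes without control replicate 2, against 15.1%.

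Antiviral effectors, 17 genes, included Mx1, with the largest difference of the 42, and the 4 genes that were not highest in knockout replicate 1. Their median difference was 0.64 with 15 of 17 positive, against 43.7% of all genes. All 3 knockout arrays lay above both controls for 7 of 17, against 2.68% of all genes. Mx1, an antiviral GTPase whose promoter drives Cre in this model and whose product is defective in most inbred strains, read 10.77, 7.30 and 7.14 in knockout replicates 1, 2 and 3, against 5.47 and 6.32 in control replicates 1 and 2. Knockout replicate 1 stood 29.4-fold above the control mean for Mx1, and the difference between the groups was 2.51 (SE 1.26). Control replicate 1 lay below the filter level of 5.77, near background, so the size of the Mx1 difference is uncertain. Mx2, its neighbour on chromosome 16, read 8.12, 6.91 and 6.66 in the knockouts, against 6.61 and 6.58 in the controls.

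The oligoadenylate synthetase family makes the second messenger that activates RNase L, and mouse Oasl1 lacks that enzyme activity. Oasl2 read 11.36, 9.38 and 8.96 in knockout replicates 1 to 3, against 7.54 and 8.84 in the controls, a difference of 1.71 (SE 0.87). Oasl1, a repressor of Irf7 translation in mice, read 10.38, 8.28 and 8.74 in knockouts, against 8.21 and 7.93 in controls. For both genes every knockout array was above both controls, knockout replicate 1 by the widest margin.

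The Ifit genes encode proteins that bind foreign RNA 5′ ends, and Ifit1 and Ifit3 are the neighbours whose ISRE cores are printed above. Ifit1 read 12.11, 8.46 and 8.51 in knockout replicates 1, 2 and 3, against 8.04 and 8.37 in the controls (difference 1.49, SE 1.26). Ifit3 read 10.53, 8.01 and 7.63 in the knockouts, against 7.13 and 7.22 in the controls (1.55, SE 0.95). Without knockout replicate 1 these differences were 0.28 for Ifit1 and 0.65 for Ifit3. Ifit2, from the same cluster and named after its values were seen, did not share the order of the arrays: it read 11.50, 9.23 and 10.41 in knockouts, against 9.73 and 10.49 in controls.

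Samhd1 and Rsad2 had another pattern. Samhd1, which degrades deoxynucleotides, read 11.44, 12.01 and 10.72 in the knockouts, against 10.56 and 10.18 in the controls, a difference of 1.02 (SE 0.42) that was 0.998 without knockout replicate 1. Samhd1 had the smallest unadjusted limma p of the 42 genes (0.0621), with an adjusted p of 1. All knockout arrays lay above both controls in some of the other Samhd1 probe sets, and the groups overlapped in others. Rsad2, the radical enzyme viperin, read 13.11, 13.69 and 10.67 in knockouts, against 13.23 and 10.73 in controls. Rsad2 was thus high in knockout replicates 1 and 2 and control replicate 1 and low in the others, so the groups overlapped. The same arrays were high and low in its other probe sets, though their order within the high arrays differed. Cmpk2, a nucleotide kinase gene beside Rsad2 that was also named after its values were seen, read 11.77, 10.76 and 10.06 in knockouts, against 10.09 and 9.23 in controls.

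Isg20, an exonuclease gene, read 12.32, 12.44 and 11.85 in knockouts, against 12.36 and 10.82 in controls. The interferon-induced transmembrane genes, whose proteins block entry of viruses, were bright in all arrays. Ifitm1 read 12.95, 12.48 and 12.69 in knockouts, against 12.45 and 13.44 in controls, a difference of -0.24 (SE 0.35). Ifitm3 read 12.78, 12.50 and 11.43 in knockouts, against 11.91 and 12.04 in controls. Neither separated the groups. Eif2ak2, the kinase PKR that stops translation on double-stranded RNA, had the only other negative difference, -0.12 (SE 0.87). It read 9.05, 6.22 and 7.89 in knockouts, against 7.59 and 8.10 in controls, and its other 2 probe sets differed by 0.31 and 0.09. The remaining effectors Oas2, Oas3 and Bst2 had positive differences of 0.34 to 1.31 and were highest in knockout replicate 1.

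**Figure D2:**
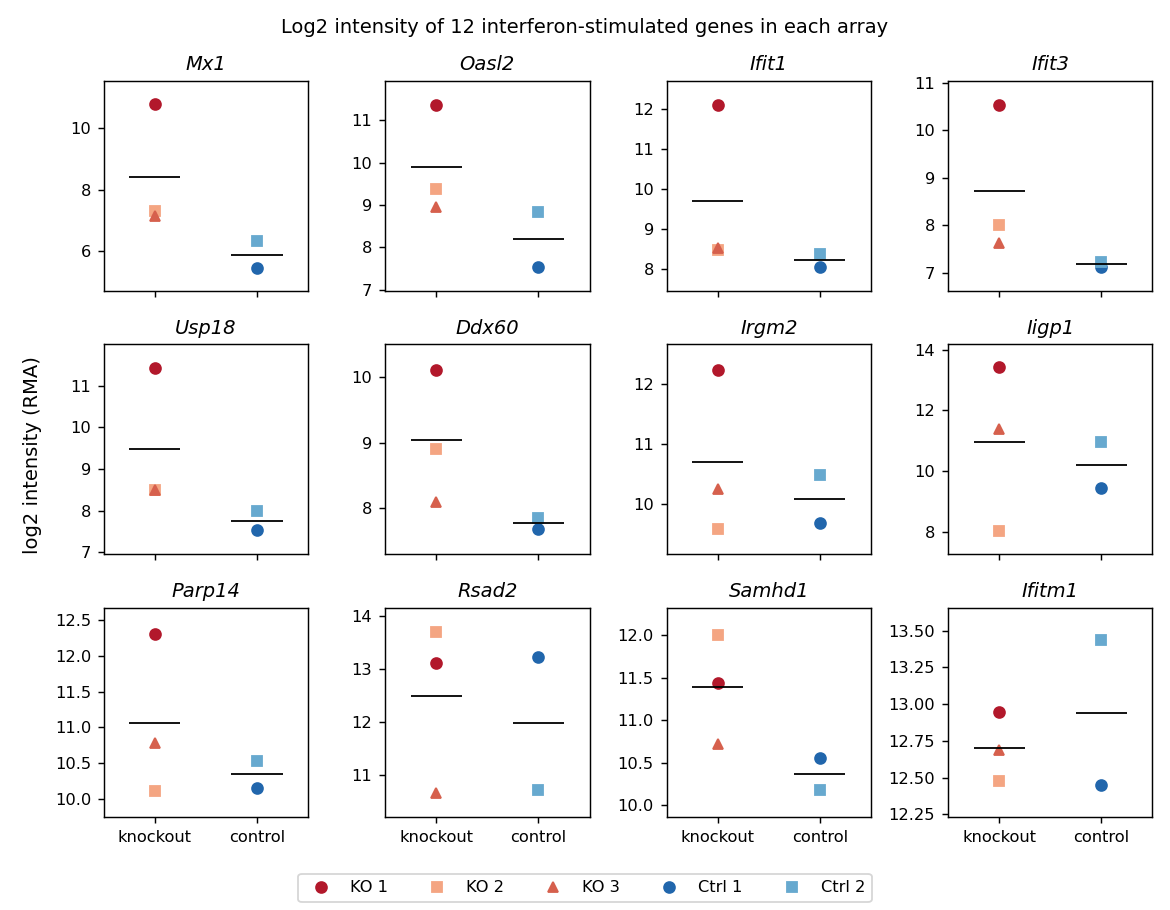
Log2 intensity (RMA, vertical axis, scaled per panel and not starting at 0) of 12 genes in 3 knockout and 2 control arrays; points are arrays and bars are group means. Knockout replicate 1 lies far above the other arrays for Mx1, Ifit1, Ifit3 and Usp18, whereas Rsad2 and Ifitm1 show other orders.

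Sensors of nucleic acids, 3 genes, were all positive, with a median difference of 0.98. Ddx60, a helicase that aids sensing of viral RNA, read 10.11, 8.90 and 8.10 in knockouts, against 7.69 and 7.85 in controls (difference 1.27, SE 0.62). Dhx58, the helicase LGP2 that tunes the RIG-I and MDA5 pathways, read 9.64, 7.78 and 8.19 in knockouts, against 7.58 and 7.53 in controls (0.98, SE 0.60). For both genes every knockout array was above both controls. Zbp1, a receptor of Z-form nucleic acids that can trigger cell death, read 8.98, 7.25 and 6.75 in knockouts, against 6.82 and 7.07 in controls, so the groups overlapped. The second Ddx60 probe set gave a difference of 1.30.

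The ISG15 system attaches a ubiquitin-like protein to other proteins. Usp18, which removes ISG15 and dampens signalling at Ifnar2, read 11.42, 8.51 and 8.51 in knockouts, against 7.53 and 7.999 in controls. The Usp18 difference was 1.72 (SE 1.02), and 0.75 without knockout replicate 1. Herc6, the ISG15 ligase of mice, read 10.66, 8.72 and 9.36 in knockouts, against 8.87 and 9.08 in controls. Trim25, a ubiquitin ligase that activates RIG-I, read 13.28, 12.46 and 12.72 in knockouts, against 12.35 and 12.47 in controls. In these probe sets of Herc6 and Trim25 knockout replicate 2 did not exceed both controls, while Usp18 had all knockout arrays above them. For Trim25 this depended on the probe set. Its dimmest probe set read 8.02, 7.65 and 7.40 in knockouts, against 6.75 and 7.09 in controls, and the groups overlapped in the remaining Trim25 probe set.

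Interferon-inducible GTPases, 8 genes whose proteins attack the vacuoles of intracellular microbes, were the group in which the knockout arrays lay farthest from each other. Knockout replicate 1 exceeded every other array by over 1 log2 unit for 8 of 8 genes, and the median over the group was 2.16 above the control mean there. In knockout replicate 2 the median was 0.54 log2 units below the control mean (value -0.54), and this array was the lowest of the 5 for 7 of 8 genes (87.5%), against 40.7% of all genes. In knockout replicate 3 the median was 0.41 above it. The groups overlapped for all 8 genes, and the median difference was 0.68 with all arrays and -0.14 without knockout replicate 1.

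Iigp1, an immunity-related GTPase, had the widest spread of the list. It read 13.43, 8.01 and 11.40 in knockouts, against 9.44 and 10.95 in controls (difference 0.76, SE 1.70). Gbp2, a guanylate-binding protein gene, read 12.46, 9.36 and 10.60 in knockouts, against 9.64 and 10.98 in controls. The knockout values thus lay on either side of the controls for both. Irgm2, a regulator of the other GTPases, read 12.23, 9.59 and 10.25 in knockouts, against 9.68 and 10.48 in controls. Ifi47 read 13.51, 11.38 and 12.11 in knockouts, against 11.50 and 12.43 in controls. Igtp, Irgm1, Gbp3 and Gbp6 had differences of 0.61 to 1.38, and Gbp3, lowest in control replicate 1, was the exception to the low rank of knockout replicate 2. The controls also differed between themselves: control replicate 2 exceeded control replicate 1 for all 8 GTPases, by a median of 0.88, and for 33 of the 42 genes (78.6%), by a median of 0.36, against 56.3% of all genes.

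Parp9 and Dtx3l, which encode partners in a complex that modifies histones and viral proteins, and Parp14, a further ADP-ribosyltransferase gene beside them on chromosome 16, were highest in knockout replicate 1. Parp14 read 12.31, 10.11 and 10.79 in knockouts, against 10.16 and 10.53 in controls. Parp9 read 11.33, 9.28 and 9.75 in knockouts, against 9.09 and 9.66 in controls. Dtx3l read 11.27, 9.85 and 10.43 in knockouts, against 9.91 and 10.47 in controls. Their differences were 0.33 to 0.74, and the groups overlapped for all 3 genes.

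**Figure D3:**
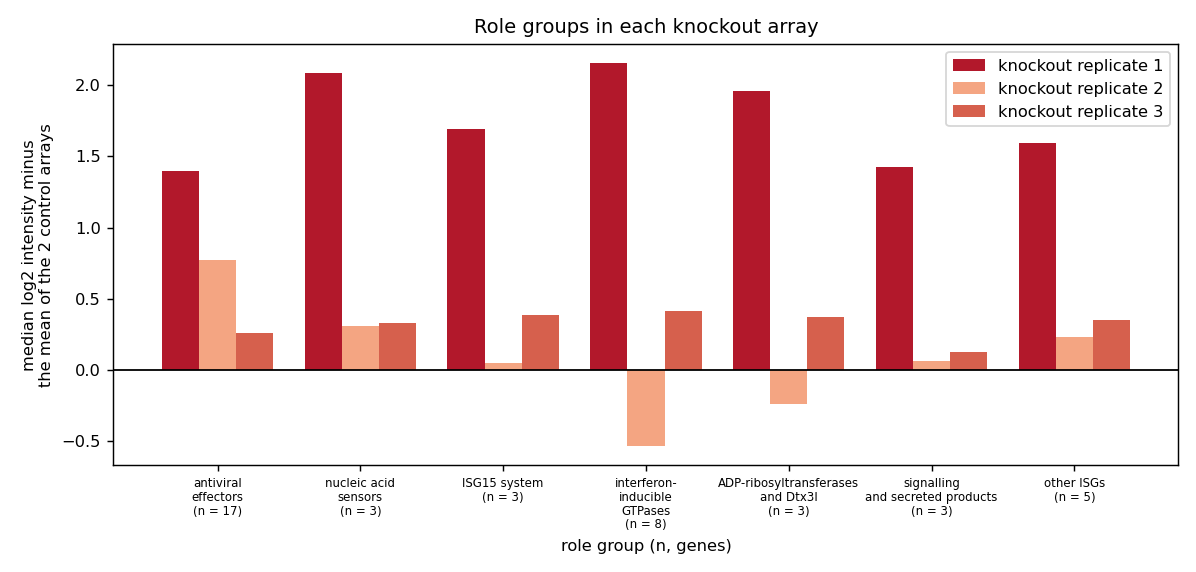
Median log2 intensity minus the mean of the 2 control arrays (vertical axis) for 7 role groups (horizontal axis, n genes) in each of the 3 knockout arrays. Replicate 1 is highest in each group, and replicate 2 lies at -0.54 for the GTPases and 0.77 for the antiviral effectors.

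Among signalling and secreted products, Stat2, the subunit of the ISRE-binding complex, read 8.03, 6.73 and 7.14 in knockouts, against 6.45 and 6.75 in controls. Cxcl10, a chemokine that attracts T cells, read 10.43, 6.94 and 6.97 in knockouts, against 6.77 and 6.97 in controls. Knockout replicate 1 was 11.8-fold above the control mean for Cxcl10, while the other knockout arrays lay 0.07 and 0.10 log2 units above that mean. Lgals3bp, a secreted glycoprotein gene, read 9.81, 7.997 and 8.96 in knockouts, against 8.96 and 8.71 in controls. The groups overlapped for all 3 genes.

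Of the remaining genes, Rtp4 and Ifi27 had all knockout arrays above both controls. Rtp4, a chaperone of receptors, read 12.81, 10.54 and 10.35 in knockouts, against 9.62 and 10.23 in controls (difference 1.31, SE 0.84). Ifi27, a small membrane protein gene, read 12.45, 11.09 and 11.21 in knockouts, against 10.80 and 10.92 in controls. Trim30a, an inhibitor of Toll-like receptor signalling in mice, read 11.95, 11.52 and 11.24 in knockouts, against 10.79 and 11.37 in controls. Ifi35 read 12.87, 11.46 and 11.81 in knockouts, against 11.67 and 11.74 in controls. Xaf1, a partner of the apoptosis inhibitor XIAP, differed by 0.62 (SE 0.72).

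**Figure D4:**
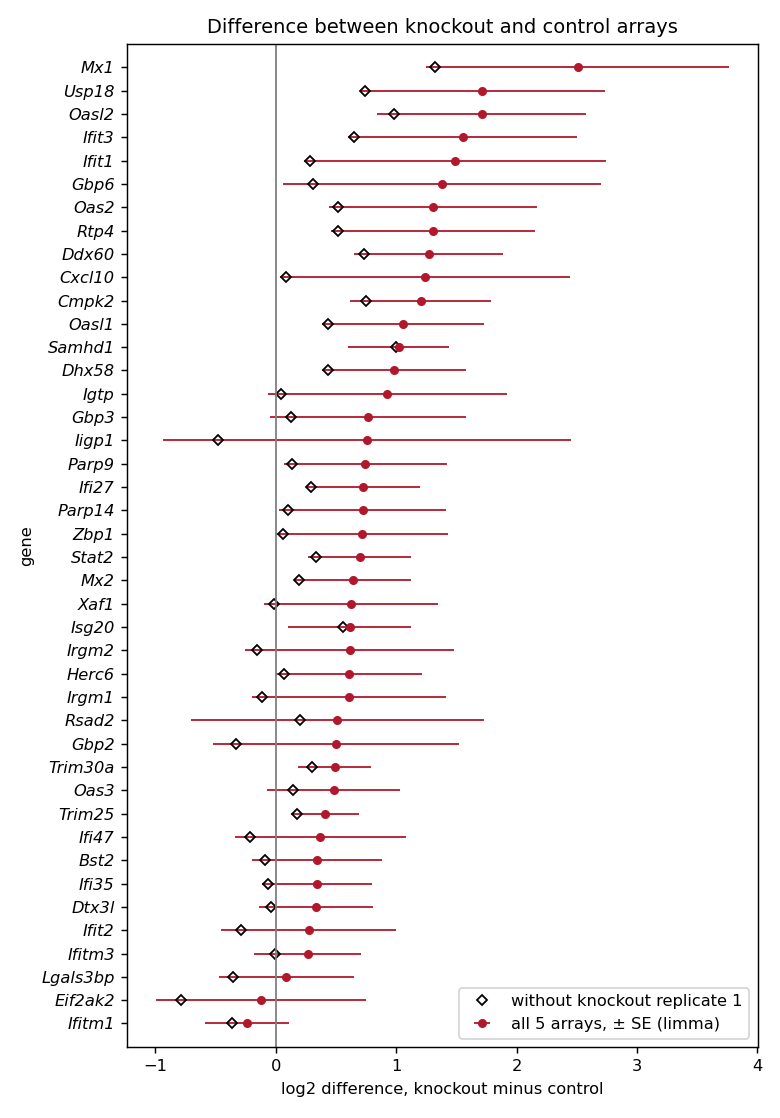
Log2 difference (knockout minus control, horizontal axis) of 42 genes (rows). Filled points with bars are limma estimates ± SE over all 5 arrays and open diamonds leave out knockout replicate 1; without it 28 of 42 differences are positive.

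Other probe sets of the same genes were compared. Of 20 genes with over 1 probe set of their own, 24 additional probe sets passed the filter, and 24 of 24 had a positive difference. For 22 of the 24 the sign was that of the brightest probe set, the exceptions being those of Eif2ak2, and 18 of 24 were highest in knockout replicate 1. The highest array of Samhd1 and Rsad2, knockout replicate 2, was shared by 5 of 6 of their other probe sets. The order of the remaining arrays was not always shared.

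Neighbouring genes did not always share an order. By RefSeq (GRCm38.p6), 22 of the 42 genes lie in 10 clusters with gaps of at most 300 kb. Irgm1 and Ifi47, and Igtp and Irgm2, on chromosome 11, were all highest in knockout replicate 1 and lowest in knockout replicate 2. Rsad2 and Cmpk2 on chromosome 12 differed in their highest array. Ifitm1 and Ifitm3 on chromosome 7 also differed, with Ifitm1 highest in control replicate 2.

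Among interferon, receptor and signalling genes of the pathway, 7 of 20 (35.0%) were highest in knockout replicate 1, against 14.4% of all genes. These 7 were Irf1, Irf7, Irf9, Ddx58, Ifih1, Tlr3 and Socs1, and Ifnar1, Ifnar2, Jak1, Jak2 and Tyk2 were not among them. In knockout replicate 2, 9 of 20 (45.0%) were highest, against 26.2% of all genes. Of 24 listed interferon, receptor and signalling genes, 23 had a probe set of their own and 20 passed the filter. In knockout replicate 1 their median exceeded the mean of the controls by 0.10, and the median difference was 0.05, with 13 of 20 positive, against 43.7% of all genes, and 0 called. The receptor gene Ifnar1 read 9.02, 9.62 and 8.91 in knockouts, against 8.83 and 9.18 in controls. Ifnar2 read 9.49, 10.27 and 9.66 in knockouts, against 9.80 and 9.85 in controls. Neither receptor gene separated the groups. All 3 knockout arrays lay above both controls for 3 of the 20 genes (15.0%), against 2.68% of all genes, namely Irf7, Ifngr1 and Ddx58. They lay below both for 2 of the 20, against 4.5% of all genes.

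Irf7, the factor that amplifies interferon production, read 10.64, 9.06 and 8.42 in knockouts, against 8.28 and 7.73 in controls. Irf9, the DNA-binding subunit of the STAT2 complex, read 9.79, 8.84 and 9.04 in knockouts, against 8.45 and 8.92 in controls. Both were highest in knockout replicate 1. Ifngr1, a receptor chain of type II interferon, read 9.94, 10.05 and 9.76 in knockouts, against 9.34 and 9.48 in controls, a difference of 0.51 (SE 0.16, limma adjusted p = 1). Ddx58, the sensor RIG-I, differed by 0.61, Socs3, an inhibitor of cytokine signalling, by 1.45 and the adaptor gene Mavs by -0.40, none of them called. Of the type I interferon genes measured, Ifnb1 read 5.39 to 5.69 and Ifna4 4.71 to 5.07, below the filter, while Ifna1 read 6.22 to 6.95 and Ifna2 5.82 to 6.08 and passed it. Ifng read 7.40 in knockout replicate 2 and 3.91 to 4.11 elsewhere, in the array whose T and NK cell markers were highest, and the part of those cells in the value was not tested.

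Further interferon-stimulated genes outside the 42 were also mostly highest in knockout replicate 1. Of 55 listed, 40 had a probe set of their own and passed the filter. Knockout replicate 1 was the highest array for 33 of 40 (82.5%), against the 14.4% of all genes given above. Their median exceeded the mean of the controls by 0.92 there and by 0.02 in knockout replicate 3, and in replicate 2 it equalled that mean to 2 decimals. The median difference was 0.28 with 36 of 40 positive, against 43.7% of all genes, and without knockout replicate 1 it was 0.01 with 22 of 40 positive, against 43.2%. All 3 knockout arrays lay above both controls for 4 of 40 (10%), against 2.68% of all genes, namely Ifi204, Trim12c, Daxx and Sp100, which differed by 1.96, 0.75, 0.63 and 0.49, and 0 were called by limma.

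Markers of other cells were read beside the high values of knockout replicate 1. Of 6 plasmacytoid dendritic cell markers, cells that secrete type I interferon, 3 were highest in knockout replicate 1 and 3 in knockout replicate 2, and the list median was 7.61, 7.50 and 6.52 in knockouts, against 6.47 and 6.49 in controls. The conventional dendritic cell list had a median of 8.86, 9.11 and 7.87 in knockouts, against 7.86 and 7.67 in controls. Of its 6 genes, 2 (H2-Aa and H2-Ab1) were highest in knockout replicate 1, 3 in replicate 2 and 1 in replicate 3. The 3 plasmacytoid markers highest in knockout replicate 1 were Ccr9, Klk1 and Lag3. The 3 highest in knockout replicate 2 were Siglech, Cox6a2 and Pacsin1. Ccr9 read 9.15, 7.93 and 5.995 in knockouts, against 6.42 and 6.06 in controls. Siglech read 6.40, 7.07 and 6.04 in knockouts, against 6.42 and 6.10 in controls. None of the markers of LT-HSCs, macrophages, B cells or T and NK cells stood highest in knockout replicate 1 except 1 of 10 LT-HSC markers. Many markers peaked in knockout replicate 2, so a raised value in knockout replicate 1 need not be the highest. The T and NK cell median was 6.70, 7.71 and 5.99 in knockouts, against 6.26 and 6.25 in controls. The B cell median was 6.42, 9.38 and 6.12, against 6.65 and 6.62. Il7r read 9.35, 10.50 and 7.44 in knockouts, against 6.21 and 7.30 in controls, while Flt3 and Cd48 lay between the controls in knockout replicate 1. In bulk RNA, more cells with a response and more RNA per responding cell cannot be told apart, and the part of these cell types in the interferon values was not tested.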

How the data were processed

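RNA of sorted LT-HSCs was measured on 5 Affymetrix arrays after 2 rounds of in vitro transcription, per the labels' protocols. Per the submitters' processing notes, the authors summarised probes by RMA with Expression Console, and the table they deposited is in log2 intensity. Software versions: not given in the sources used here. That step gives all arrays one distribution, and a change common to most transcripts would not be seen. The deposited table held 45101 rows; 64 Affymetrix controls were left out, and of 45037 probe sets the 40% with the lowest mean (below 5.77) were not tested. The annotation gave 34945 probe sets 1 symbol, 932 several and 9160 none.

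Knockout and control were compared over 27022 probe sets with limma 3.58.1 in R 4.3.3 (lmFit and eBayes, two-sided, Benjamini-Hochberg over all probe sets, adjusted p under 0.05), checked on simulated data. The number of arrays limits precision. Figures used matplotlib 3.10.9.

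The members, role groups and lists were chosen with earlier results of these data known. Per-array values are given for the 4 brightest members of each role group, Mx1, members with groups that do not overlap, and members with a negative difference; in the other lists for Ifnar1, Ifnar2, Irf7 and Irf9 and up to 4 genes of smallest p. As alternatives, single arrays were left out, the filter was dropped or set to 60%, arrays were weighted, cyclic loess or centring on medians was applied, probe sets of one gene were averaged, the eBayes prior was made trended and robust, and the replicate number was used as a block. Counting members through shared probe sets was added after the data were seen.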

Additional observations from a re-analysis of the deposited data

Results flagged for a closer look

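A probe set shared by Parp10 and Plec was outside the comparisons because it carries 2 symbols, and all 3 knockout arrays lay above both controls in it. It read 10.07, 9.01 and 9.04 in knockout replicates 1, 2 and 3, against 8.72 and 8.94 in the controls, a log2 difference of 0.54 (SE 0.39, limma adjusted p = 1). Without knockout replicate 1 the difference was 0.19.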

How the results depend on the processing

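No probe set and no member was called by limma under any alternative run, while 174 to 1160 probe sets (89 of 10916 genes when probe sets of one gene were averaged) and 0 to 13 members had an unadjusted p under 0.05. The median difference of the members, 0.71, was 1.73 with array weights, which gave knockout replicate 1 a weight of 7.67, and 0.14 to 1.15 when single arrays were left out. It was 0.64 when probe sets of one gene were averaged, 0.72 with the shared Isg15 probe set (an alternative chosen after seeing the data) and 0.71 with a trended robust prior, either filter, cyclic loess or centring on medians. Members with groups that do not overlap numbered 12 to 22 without single arrays, among them 22 without knockout replicate 2 (13.9% of all genes) and 20 without control replicate 2 (15.1%). Leaving out a control leaves 1, which is assumed to vary like the knockouts. Without knockout replicate 1, 12 members turned negative. The differences that changed sign without single arrays ranged from -0.79 to 0.63 for Eif2ak2, -0.16 to 1.38 for Isg20, -0.29 to 0.85 for Ifit2, -0.74 to 1.76 for Rsad2, -0.090 to 0.71 for Bst2, -0.73 to 0.26 for Ifitm1, -0.0055 to 0.67 for Ifitm3, -0.33 to 1.22 for Gbp2, -0.12 to 1.15 for Irgm1, -0.16 to 1.17 for Irgm2, -0.48 to 2.22 for Iigp1, -0.22 to 0.84 for Ifi47, -0.043 to 0.67 for Dtx3l, -0.36 to 0.55 for Lgals3bp, -0.068 to 0.64 for Ifi35 and -0.013 to 1.15 for Xaf1. Eif2ak2 was 1.01 with array weights and 0.092 with its probe sets averaged. The replicate numbers are shared by the groups but mark no shared animal; with the replicate block the median was 0.89, as without knockout replicate 3, and 0 members were called. Deviations of same-numbered arrays from their group means correlated at -0.54 and -0.57 over probe sets. With the other control, knockout replicates 1 and 2 gave 0.54 and 0.57. With 2 controls the deviations of each are the negative of the other's, so these values cannot decide whether the arrays were paired.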

Other observations

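Probe sets with several symbols were not used above. The probe set shared by Isg15, the ubiquitin-like modifier, and Gm9706 read 10.11, 8.44 and 7.77 in knockout replicates 1, 2 and 3, against 8.23 and 7.38 in control replicates 1 and 2, a difference of 0.97 (SE 0.77, limma adjusted p = 1). Knockout replicate 3 lay below control replicate 1, so the groups overlapped. The probe set shared by the GTPase genes Tgtp1 and Tgtp2 read 14.37, 10.39 and 12.96 in knockouts, against 12.05 and 12.98 in controls, highest in knockout replicate 1 and lowest in knockout replicate 2, as were 7 of the 8 GTPases above. The probe set shared by Gvin1, a very large GTPase gene, and Gm4070 read 13.24, 11.14 and 11.76 in knockouts, against 10.96 and 11.98 in controls. All these were highest in knockout replicate 1, and none was called.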
